A study of Mus musculus with 11 samples.

Results

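The genes described here encode the protein subunits of the respiratory chain and of ATP synthase that are carried in the nuclear genome. They were chosen by name: NDUF followed by A, B, C, S or V and a digit (complex I), SDHA to SDHD (complex II), names that begin with UQCR (complex III), COX with a digit from 4 to 8 and a letter from A to C (complex IV), and names that begin with ATP5 (complex V). Of 23393 gene names in the deposited table, 82 met this rule: 37 of complex I, 4 of complex II, 8 of complex III, 16 of complex IV and 17 of complex V. The rule takes in a few proteins that are not strict subunits. NDUFA4 is now regarded as a subunit of complex IV, COX7A2L is a factor of respiratory supercomplexes, and ATP5SL is an older name of Dmac2, which takes part in the assembly of complex I.

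Bulk RNA-seq was carried out on liver tissue of 11 male GS WT mice, one library per mouse. The mice were 7 weeks old at injection, and the study's line has a mixed background of 129/Ola and C57BL/6. The control group (3 mice, time 0 in the labels) received vehicle, which the study's legend calls vector control. Mice of the oncogene groups received plasmids for human c-MET and ΔN90-β-catenin, a β-catenin that lacks its N-terminal end and is constitutively active. Both genes were under the EF1α promoter and came with the SB10 plasmid for the Sleeping Beauty transposase, by hydrodynamic tail vein injection (SB-HTVI). Livers were harvested after 2 weeks (2wk, 4 mice) or 3 weeks (3wk, 4 mice). This delivery reaches only a portion of hepatocytes, so each library mixes cells with and without the oncogenes. In such bulk samples, fewer cells of a type and less RNA per cell cannot be told apart. The labels name hepatocytes as the cell type and a kit that depletes ribosomal RNA, whereas the study's methods describe whole tissue and a stranded mRNA kit.

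Oxidative phosphorylation takes place in the inner mitochondrial membrane. Complex I takes electrons from NADH and complex II from succinate. The electrons pass through ubiquinone to complex III and through cytochrome c to complex IV, which reduces oxygen. Complexes I, III and IV move protons across the membrane, and complex V uses their return to make ATP. All complexes but complex II also hold subunits encoded in mitochondrial DNA, which are not analysed here. Hepatocytes are rich in mitochondria and draw on this pathway for gluconeogenesis, urea synthesis and the oxidation of fatty acids.

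Values are RPKM, reads per gene length and read total. The read totals, inferred from the steps between low values of genes with a single exon, were 17090000 to 26930000 per library. At these totals, 46.7% to 55.1% of the low values lay within 0.03 read, beside rounding, of a whole number of reads, where chance gives 7.82% to 8.61%. A gene of 1000 bases with 3 reads would have 0.111 to 0.176 RPKM, a floor that covers counting error only. The livers carried the markers of hepatocytes, led by ALB at a mean of 43250 RPKM. No marker of striated muscle or brown fat, tissues that use their own isoforms of several subunits, reached a mean of 0.5 RPKM, and the highest single value among them was 0.181.

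The subunits were among the abundant transcripts of the liver. Their median mean level over the 11 mice was 126.7 RPKM for the 75 members with a mean of at least 0.5 RPKM, the filter used for testing, beside 6.30 over all 11170 genes that passed it. Of the 82 members, 35 stood among the 500 highest names of the table and 58 among the 1000 highest. Together they took 2.43% ± 0.142 of the summed RPKM in the control livers (SD, n = 3), 2.42% ± 0.146 at 2 weeks (SD, n = 4) and 2.36% ± 0.106 at 3 weeks (SD, n = 4). The mean share of the groups thus differed by less than 1 SD between mice.

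The complexes differed in level. The median over tested members was 228 RPKM in complex III, 215 in complex II, 173 in complex IV, 145 in complex V and 97.7 in complex I. The members with the highest mean were ATP5B (799 RPKM) and ATP5G3 (596), the catalytic β subunit and a subunit of the rotating c-ring of ATP synthase. In complex III they were UQCRQ (592) and UQCR10 (290), both small subunits next to the catalytic core. In complex I, NDUFA4 (530) and NDUFB9 (335) led, the latter from the distal membrane arm. COX6A1 (507) and COX6B1 (337) led complex IV, and SDHB (241) and SDHA (223), the iron-sulfur subunit and the flavoprotein that oxidizes succinate, led complex II.

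No change was computed for the 7 members under the filter. COX7B2, COX8C and NDUFS5 were listed at 0 in every mouse. COX6A2 ranged from 0 to 0.146 RPKM, COX6B2 from 0 to 0.551, COX8B from 0 to 0.161 and ATP5G2 from 0 to 0.964. COX6A2 and COX8B are known as isoforms of heart and skeletal muscle, and COX6B2, COX7B2 and COX8C as isoforms of testis.

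In each set of duplicate isoforms, one gene held nearly all of the RPKM. ATP5G3 took 98.9% to 99.2% of the sum over ATP5G1, ATP5G2 and ATP5G3, whose mature proteins are the same c subunit. RPKM divides by gene length, and the annotated transcripts are 4715 bases for Atp5g1, 731 for Atp5g2 and 723 for Atp5g3. The lengths behind the deposited values are not known here, and their part in these shares was not tested. COX7A2, the widely expressed isoform, took 97.2% to 99.7% of the sum over COX7A1 and COX7A2, and NDUFA4 took 99.6% to 99.9% of that over NDUFA4 and NDUFA4L2. COX6A2 reached at most 0.0309% beside COX6A1, and COX6B2 at most 0.182% beside COX6B1. COX7A1, the isoform of heart and muscle, made up 1.30% ± 0.124 of its pair in the control livers (SD, n = 3), 1.95% ± 0.690 at 2 weeks (SD, n = 4) and 1.21% ± 0.660 at 3 weeks (SD, n = 4). Its highest share, 2.83%, was in 2wk replicate 1 and its lowest, 0.316%, in 3wk replicate 4, so the oncogene groups spread to both sides of the controls.

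To show how far the genes of subunit c differ in the part that encodes the mature protein, the last 120 coding bases before the stop codon are given (GENCODE M21). Capitals mark bases that differ from Atp5g3.
Atp5g3: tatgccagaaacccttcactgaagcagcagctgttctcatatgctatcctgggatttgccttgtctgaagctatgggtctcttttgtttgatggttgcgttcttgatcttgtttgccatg
Atp5g1: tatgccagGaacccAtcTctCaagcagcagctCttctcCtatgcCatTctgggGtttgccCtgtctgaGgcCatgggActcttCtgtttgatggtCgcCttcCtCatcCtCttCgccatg
Atp5g2: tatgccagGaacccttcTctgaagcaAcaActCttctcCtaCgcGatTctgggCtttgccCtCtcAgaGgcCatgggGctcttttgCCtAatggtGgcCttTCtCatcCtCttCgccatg
Atp5g1 differed at 21 of the 120 bases and Atp5g2 at 27. Of the 50-base words in their annotated transcripts, Atp5g3 shared 0% with any other gene, Atp5g1 11.6% and Atp5g2 87.4%, the last with the transcribed processed pseudogene Gm10175.

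Sequence shared with other genes bears on how these levels can be read. At least 1 word of 50 bases was shared with another annotated gene by 45 of the 82 members, and at least 30% of the words by 13. Of the closest partners of these 45 genes, 28 were pseudogenes. How the authors' counting treated reads that map to several places is not given in the sources used here, and its part in the levels was not tested. Beside ATP5G2, the highest shares were those of ATP5L, the g subunit of ATP synthase (84.8%), COX7C (53.0%), ATP5H (50.5%), UQCRB (43.4%) and NDUFS5 (41.2%). ATP5L and COX7C, both parts of the complexes in every tissue, were at 0.211 to 0.944 and 0.724 to 2.44 RPKM. ATP5H, a subunit of the peripheral stalk, was at 64.4 to 101 RPKM with a similar share to that of COX7C, so a high share did not always go with a low level. These genes were named for their shares after the values were seen.

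**Figure D1:**
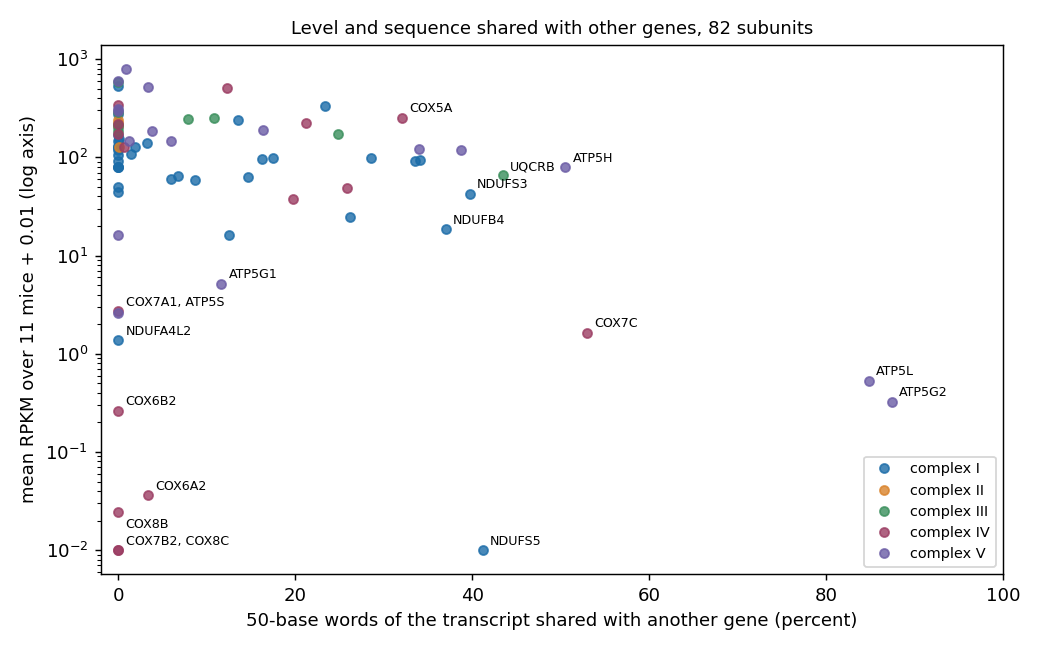
Mean RPKM over 11 mice of each of the 82 subunits (log axis, with 0.01 added) against the percentage of its transcript's 50-base words that occur in another gene. ATP5G2 and ATP5L lie at 87.4% and 84.8% with means under 1 RPKM, and NDUFS5, at 41.2%, is listed at 0, whereas 9 of the 13 members with at least 30% have means of 18.6 to 253 RPKM.

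NDUFS5, a subunit of the membrane arm of complex I with 41.2% of its words shared, was listed at 0 in all 11 mice, while BC002163, a gene annotated as a processed pseudogene on chromosome 16, had values in the range of a subunit. In the control livers BC002163 was at 27.0, 55.6 and 27.8 RPKM. At 2 weeks its values were 31.6, 23.3, 35.5 and 28.5 RPKM, and at 3 weeks 34.8, 29.7, 33.9 and 48.5. All 3 groups overlapped. The Ndufs5 coding sequence, 321 bases on chromosome 4, aligned to the pseudogene over 319 bases without a gap, and 317 of them (99.4%) were the same. The first 150 bases of each are shown, because they let the reader see how little separates the 2 genes, with both differing bases in capitals.
Ndufs5: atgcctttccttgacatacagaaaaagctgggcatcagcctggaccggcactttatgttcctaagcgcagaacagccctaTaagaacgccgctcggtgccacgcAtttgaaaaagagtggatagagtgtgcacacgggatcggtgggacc
BC002163: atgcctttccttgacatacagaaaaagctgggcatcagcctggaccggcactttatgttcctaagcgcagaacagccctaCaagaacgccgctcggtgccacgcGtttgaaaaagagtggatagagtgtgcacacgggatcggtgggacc
Whether the reads of Ndufs5 were given to BC002163 was not tested, since the reads are not used here. The value of 0 for NDUFS5 is therefore reported as a listing and not as absence of the transcript.

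Each oncogene group was compared with the controls to ask whether expression of c-MET and ΔN90-β-catenin came with other levels of these subunits. The test was limma on log2(RPKM + 0.5), so changes of low genes are understated, with p-values adjusted over all 11170 genes. The main comparison set the mean of the 2wk and 3wk group means against the controls. None of the 75 tested members passed an adjusted p of 0.05 in it (0 in limma), and 3 were lower and 0 higher at an unadjusted p under 0.05, beside 211 lower and 2444 higher of the 11170 genes. With median centring, which shifts all genes alike, 25 members were lower at that unadjusted p here and 39 at 3 weeks. Without 2wk replicates 1 and 2, 9 were lower in the main comparison. Over all genes, 467 passed, which is 4.18% of those tested, 442 of them higher and 25 lower. This count rests on single mice: it was 32, 48 or 58 without control replicate 1, 2 or 3, 275 without 2wk replicate 4, and 308 or 183 without 3wk replicate 1 or 4. The subunits as a group sat below the other genes. Their median log2 change was -0.04, against 0.15 for all genes tested, a difference of -0.19, which was -0.04 with quantile normalization. Without control replicate 2 the members' median was 0.02, with 43 of 75 higher.

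Of the 75 members, 20 were higher and 55 lower than in the controls, whereas 8679 of the 11170 genes were higher. With 1 library left out, from 12 (control replicate 3) to 43 (control replicate 2) members were higher, and 37 without 2wk replicate 4. With array weights 36 were. Below the median change of all genes were 71 of the 75. The changes were small for single members: they ran from -0.28 to 0.21, and the 95% confidence interval lay within a 1.5-fold change either way for 73 of 75 members, against 7381 of 11170 genes. Scaling decided the sign of many of them. The median change of all genes, 0.15 on the deposited scale, was -0.05 with each library centred on its median, 0.17 with equal RPKM sums and -0.01 with quantile normalization. With centring, 2 of 75 members were higher; with equal RPKM sums 34 were, and with quantile normalization 10. Centring shifts all genes by one amount and equal sums by nearly one amount, so these counts follow from the shift and do not set members apart.

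**Figure D2:**
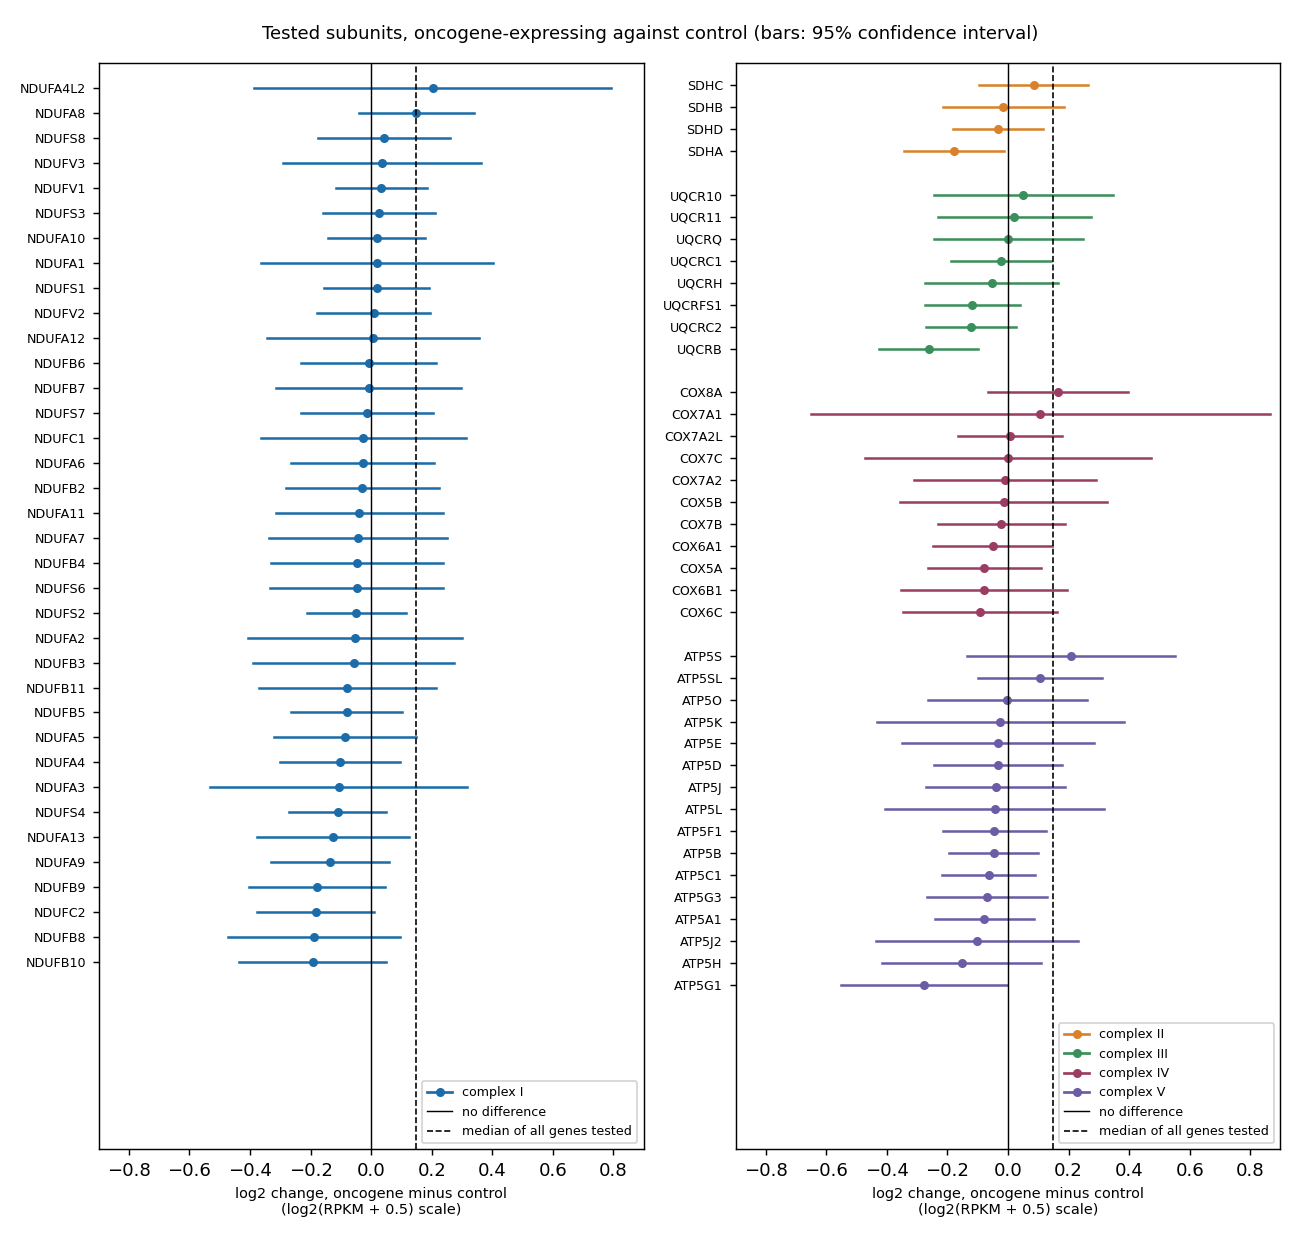
Log2 change between oncogene-expressing and control livers for the 75 tested subunits, by complex, with 95% confidence intervals (limma). Most points lie left of the dashed line, the median of all genes tested (0.15); median centring shifts all points left by the same amount, which leaves 2 of 75 right of 0.

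Abundant genes had lower changes than the rest. Genes with a mean of 200 RPKM or more had a median log2 change of -0.05 (317 genes) and the 23 members in that range also -0.05. There 36.0% of genes were higher and 4 of the 23 members. Between 50 and 200 RPKM, the median was 0.02 over 850 genes and -0.04 over 38 members, with 55.2% of genes higher and 8 of the 38 members. Between 10 and 50 RPKM, the median was 0.10 over 3118 genes and 0.01 over 8 members, 5 of them higher. From 2 to 10 RPKM it was 0.19 over 4384 genes and 0.11 over 3 members, 2 of them higher. Genes between 0.5 and 2 RPKM had a median of 0.22 (2501 genes), and 1 of the 3 members there was higher. The part of level in the members' position was not tested.

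By complex, the median log2 change ranged narrowly. It was -0.04 in complex I, -0.02 in complex II, -0.04 in complex III, -0.01 in complex IV and -0.04 in complex V. Set against all genes, these are differences of -0.19, -0.17, -0.19, -0.16 and -0.19. The complexes thus lay closer to each other than 1 SD between mice of the same group, which was 0.119 to 0.184 across the complexes. With quantile normalization the differences were smaller and complex II turned to the other side, at 0.01.

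Per mouse, the median of the members relative to all genes was -0.05, 0.10 and -0.04 log2 in the controls. At 2 weeks it was 0.13, 0.08, -0.24 and -0.36 in replicates 1 to 4. At 3 weeks it was -0.16, -0.41, -0.32 and -0.22. Replicate 1 at 2 weeks was above every control and replicate 2 within their range, whereas the other 6 oncogene-injected mice were below every control. In all 5 complexes these 6 mice were below every control. This split includes the shift of all genes, whose median was 0.11 to 0.26 in these 6 mice and -0.01 to 0.04 in the others. Before it was subtracted, the members' median was below every control in 4 of the 8 mice, at -0.13 and -0.17 in 2wk replicates 3 and 4 and -0.15 and -0.14 in 3wk replicates 2 and 3, and it was 0.03 and -0.02 in 3wk replicates 1 and 4. Replicate 1 at 2 weeks was above the controls in complexes I, IV and V and within them in complex III. Replicate 2 was slightly above them in complex IV and within them in complexes I, III and V. In complex II, replicates 1 and 2 at 2 weeks were at -0.02 and -0.08, the second just below the controls. By their mouse numbers in the labels, those 2 mice lie in a range apart from the other 6, and the controls lie in another. Such a range is called a series here. The labels name no series or batch, and the grouping was made from the numbers alone. Since no series holds both controls and oncogene-injected mice, series and oncogenes cannot be told apart, while 2wk replicates 3 and 4 share their series with all mice at 3 weeks. Without both mice, a comparison planned from the labels, the members' median relative to all genes was -0.31 at 2 weeks, beside -0.10 with them, and UQCRB and ATP5G1 passed the test in the main comparison. Both were lower, and in that setting 1513 of 11204 genes, or 13.5%, passed, 1439 of them higher and 74 lower.

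**Figure D3:**
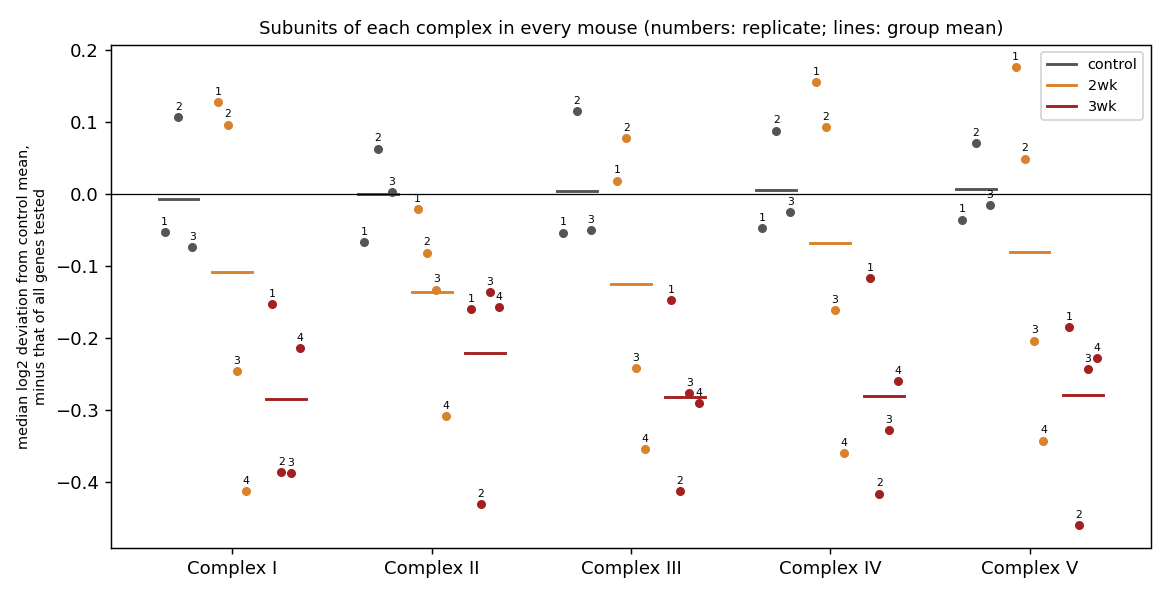
Median log2 deviation from the control mean over the tested subunits of each complex, minus that of all genes, in every mouse; numbers give the replicate and lines the group mean. The 2wk replicates 3 and 4 and all 4 mice at 3 weeks lie below every control in all 5 complexes; before all genes were subtracted, the median over all members did so in 4 of the 8 mice.

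The balance of short and long transcripts was also compared between mice. Among the members, the median deviation of the 37 with a transcript under 861 bases minus that of the 38 longer ones was 0.12 and 0.11 in 2wk replicates 1 and 2. It was -0.09 and -0.12 in replicates 3 and 4 and -0.12 in 3wk replicate 3. In the other mice it lay between -0.01 and 0.04. Over all genes it was 0.21, 0.20, -0.10 and -0.16 in 2wk replicates 1 to 4, 0.06, 0.13 and -0.02 in the controls, and 0.03, -0.07, -0.16 and -0.05 at 3 weeks. The part of transcript length in the values of the subunits was not tested.

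Over the 11 mice, the median Pearson correlation between pairs of tested members was 0.479 (2775 pairs), 0.620 within complex I (630 pairs) and 0.433 between different complexes (1936 pairs). Within the other complexes it was below that, at 0.421 in II, 0.333 in III, 0.379 in IV and 0.429 in V. The points share library, depth and group, no value for other genes was computed, and no test was made.

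Complex I, the largest, is built from an electron input part (N module), a ubiquinone-reducing part (Q module) and a membrane arm. The assignment of its subunits to these parts was made from general knowledge. None of its 36 tested members passed the test. The 10 subunits of the distal membrane arm were all lower on the deposited scale, with a median log2 change of -0.07, although NDUFB2, NDUFB6 and NDUFB7 turned positive with equal RPKM sums. In the proximal arm 3 of 9 were higher, with a median of -0.04. The N module, which binds NADH, had 5 of 10 higher and a median of -0.01, and the Q module 2 of 5 higher and also -0.01. All 4 parts were below the median of all genes.

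NDUFB10, a subunit of the distal membrane arm, had the lowest change in complex I. Its control values were 218, 249 and 207 RPKM. At 2 weeks it was 253, 200, 182 and 189, and at 3 weeks 218, 171, 180 and 183. Of the 8 oncogene-injected mice, 6 were below every control, and 2wk replicate 1 was above them. The log2 change was -0.19 (95% confidence interval -0.44 to 0.05, limma adjusted p = 0.304), and it ran from -0.25 to -0.12 with 1 library left out. NDUFB9 and NDUFA4, the most abundant, had changes of -0.18 (-0.40 to 0.04) and -0.10 (-0.30 to 0.09). NDUFS4, an accessory subunit of the N module named after its values were seen, was at 50.3, 56.1 and 52.4 RPKM in the controls and 44.6 to 48.0 RPKM at 3 weeks. All 4 mice at 3 weeks were below the controls, with a log2 change of -0.18 (-0.36 to -0.00) and a limma adjusted p of 0.154. How many of all genes separated in this way at 3 weeks was not counted, so no conclusion is drawn from it.

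NDUFA4L2, a paralogue of NDUFA4 known to respond to hypoxia, had the highest change in complex I at a mean of 1.36 RPKM. In the controls it was 0.515, 2.12 and 1.09 RPKM, and in the 8 oncogene-injected mice it ran from 0.646 to 1.74, all inside that range. Its log2 change was 0.20 (-0.39 to 0.79, limma adjusted p = 0.672), and it was negative with quantile normalization. Without control replicate 1 it was -0.13 and without control replicate 2 it was 0.55. NDUFA8, a subunit of the intermembrane space side, was next, also named after its values were seen. It was 112, 139 and 103 RPKM in the controls and 119 to 139 in the oncogene-injected mice. The groups overlapped, and the log2 change of 0.15 (-0.04 to 0.34, limma adjusted p = 0.312) turned negative with median centring. It was 0.18 with equal RPKM sums and 0.16 with quantile normalization.

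Complex II links the chain to the tricarboxylic acid cycle and is the only one encoded wholly in the nucleus. SDHA, its flavoprotein, was at 226, 255 and 251 RPKM in the controls. At 2 weeks it was 194, 212, 210 and 222, and at 3 weeks 231, 204, 233 and 219. All 4 mice at 2 weeks were below the controls, while 2 at 3 weeks lay within their range. How many of all genes separated in this way at 2 weeks was not counted, so no conclusion is drawn from it. The log2 change in the main comparison was -0.18 (-0.34 to -0.01), with an unadjusted p of 0.0358 and a limma adjusted p of 0.180. It was -0.22 at 2 weeks (limma adjusted p = 0.320) and -0.14 at 3 weeks (0.277).

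SDHB showed no such separation. Its means were 242 ± 13.6 RPKM in the controls (SD, n = 3), 242 ± 17.9 at 2 weeks (SD, n = 4) and 238 ± 26.0 at 3 weeks (SD, n = 4), with a log2 change of -0.02 (-0.22 to 0.18) that turned positive with equal RPKM sums and quantile normalization. It was also positive without control replicate 2 (0.03), 2wk replicate 4 (0.01) or 3wk replicate 2 (0.03). SDHC, a membrane anchor that helps bind ubiquinone, was 118, 128 and 118 RPKM in the controls. It was 143, 129, 121 and 112 at 2 weeks, and 135, 123, 137 and 131 at 3 weeks. Of the 8, 5 were above every control, and the log2 change was 0.08 (-0.10 to 0.26, limma adjusted p = 0.552), negative with median centring. It was 0.11 with equal RPKM sums and 0.07 with quantile normalization.

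Complex III held the member with the smallest p. UQCRB, a subunit that contacts the ubiquinone-binding site, was 71.0, 81.8 and 70.8 RPKM in the control livers. At 2 weeks it was 66.6, 60.8, 63.5 and 57.3 RPKM. At 3 weeks it was 60.6, 63.1, 61.8 and 62.1. All 8 oncogene-injected mice were below all 3 controls, with no overlap. UQCRB was the only one of the 75 tested members for which this held, where 71 of the 11170 genes, or 0.636%, had all 8 mice below. No member had all 8 above, where 6.87% of genes did. The log2 change was -0.26 (95% confidence interval -0.43 to -0.10), with an unadjusted p of 0.00425 and a limma adjusted p of 0.0699. It was -0.26 at 2 weeks (limma adjusted p = 0.228) and -0.26 at 3 weeks (0.0695). The change stayed below 0 under every alternative, between -0.52 and -0.19, and its adjusted p ran from 0.0124 to 0.231. It passed with median centring (-0.46, limma adjusted p = 0.0422) and with array weights (-0.25, 0.0285). Since 43.4% of its words also occur in other genes, mostly processed pseudogenes, the part of such copies in its values was not tested.

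The core proteins UQCRC1 and UQCRC2 and the Rieske iron-sulfur protein UQCRFS1 were all lower, with a median log2 change of -0.12, and UQCRC1 turned positive with equal RPKM sums (0.01). Among the 5 small subunits the median was 0.00 and 3 were higher. UQCRQ, the most abundant, had means of 590 ± 54.2 RPKM in the controls (SD, n = 3), 602 ± 94.7 at 2 weeks and 583 ± 52.3 at 3 weeks (SD, n = 4 each), with a log2 change of 0.00 (-0.25 to 0.25), which ran from -0.04 without control replicate 3 to 0.08 without control replicate 2. UQCR10 had the highest change in the complex, 0.05 (-0.24 to 0.35, limma adjusted p = 0.848), and was negative with median centring and without control replicate 1 (-0.03) or 3 (-0.03). It was 0.08 with equal RPKM sums, 0.06 with quantile normalization and up to 0.21 with 1 library left out.

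Complex IV had 11 of 16 members tested and none passed. COX8A, a small subunit with a single widely expressed form, was 192, 215 and 193 RPKM in the controls. It was 229, 244, 210 and 218 at 2 weeks and 247, 219, 257 and 179 at 3 weeks. Of these 8 mice, 6 were above every control and 1, 3wk replicate 4, was below. The log2 change of 0.17 (-0.06 to 0.40, limma adjusted p = 0.352) was the highest in the complex. It was 0.20 with equal RPKM sums, 0.17 with quantile normalization and -0.03 with median centring, which shifts all genes alike. COX6C had the lowest change, -0.09 (-0.35 to 0.16, limma adjusted p = 0.652), with means of 235 ± 12.1 RPKM in the controls (SD, n = 3), 226 ± 43.5 at 2 weeks and 217 ± 13.7 at 3 weeks (SD, n = 4 each). COX6A1 and COX6B1, the liver forms of their sets, had changes of -0.05 (-0.25 to 0.14; 0.01 without control replicate 2) and -0.08 (-0.35 to 0.19).

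The other isoforms of complex IV covered a wide range of precision. COX7A1 had a change of 0.11 with an interval from -0.65 to 0.86, COX7A2 of -0.01 (-0.31 to 0.29), COX7B of -0.02 (-0.23 to 0.19) and COX7A2L of 0.01 (-0.17 to 0.18). COX7A1 was 1.97, 2.65 and 2.24 RPKM in the controls, 5.72, 4.04, 3.15 and 1.78 at 2 weeks, and 3.52, 1.99, 2.01 and 0.576 at 3 weeks. Its 4 highest values were in the oncogene groups, and so were its 2 lowest. COX7A1 and COX7A2L turned negative with median centring and quantile normalization, and COX7A2 and COX7B turned positive with equal RPKM sums. All 4 changed sign when single mice were left out: COX7A1 was -0.03 without 3wk replicate 1, COX7A2L -0.05 and COX7A2 0.05 without control replicate 2, and COX7B 0.04 without control replicate 3.

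ATP synthase consists of the catalytic F1 head, a rotor with the ring of subunit c, a peripheral stalk and further membrane subunits. The 5 genes of the F1 head were all lower on the deposited scale, with a median log2 change of -0.05, and so were the 4 of the peripheral stalk, with -0.04. Of the 16 tested members of complex V, 2 were higher, both outside the core enzyme: ATP5S, coupling factor B, and ATP5SL, and both were negative with quantile normalization. ATP5B, the most abundant member of all, had means of 818 ± 21.7 RPKM in the controls (SD, n = 3), 809 ± 14.7 at 2 weeks and 775 ± 31.8 at 3 weeks (SD, n = 4 each). Its log2 change was -0.05 (-0.19 to 0.10, limma adjusted p = 0.699).

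ATP5G1, by RPKM a minor gene of subunit c, had the lowest change of all members. It was 5.67, 5.87 and 6.27 RPKM in the controls. At 2 weeks it was 6.78, 4.81, 4.48 and 4.12, and at 3 weeks 4.67, 4.74, 4.76 and 4.50. Of the 8 oncogene-injected mice, 7 were below every control and 2wk replicate 1 was above. The log2 change was -0.28 (-0.55 to -0.00), with an unadjusted p of 0.0488 and a limma adjusted p of 0.208. Without 2wk replicate 1 it was -0.35 with a limma adjusted p of 0.0496, past the threshold. ATP5G3, which held at least 98.9% of the RPKM of the set, had a change of -0.07 (-0.27 to 0.13). With 1 library left out, the ATP5G3 change ran from -0.11 to -0.004. ATP5S was 2.68, 1.96 and 2.21 RPKM in the controls and 1.79 to 3.43 in the oncogene groups, with a change of 0.21 (-0.14 to 0.55, limma adjusted p = 0.432) that was negative with quantile normalization.

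**Figure D4:**
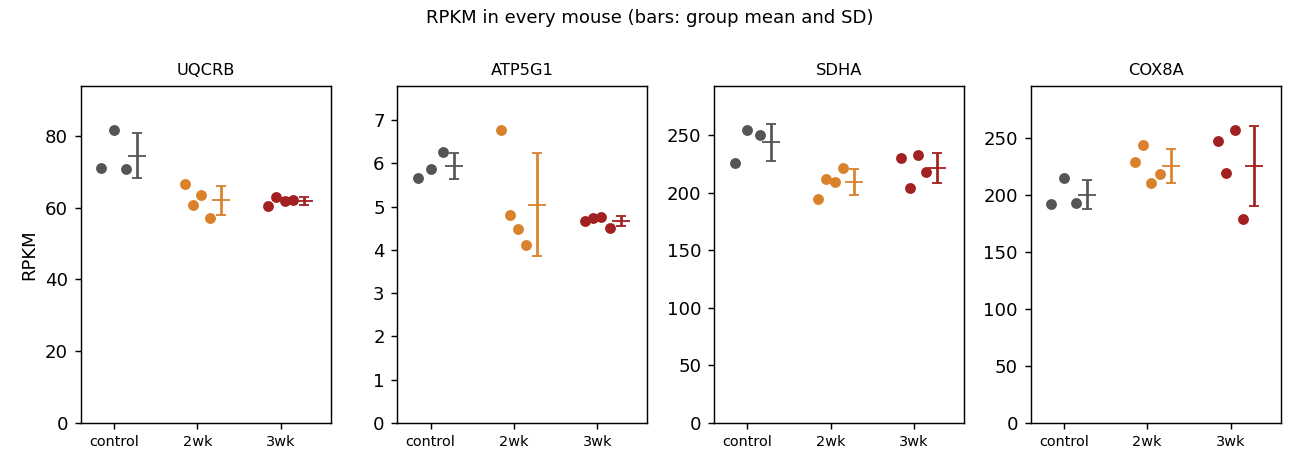
RPKM of 4 subunits in every mouse, with group mean and SD (control n = 3, 2wk and 3wk n = 4). UQCRB separates all 8 oncogene-injected mice from the controls, ATP5G1 7 of 8, while SDHA and COX8A overlap; the log2 change of COX8A is 0.17, 0.17 with quantile normalization and -0.03 with median centring, which shifts all genes alike.

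The time points were also taken separately, against the same 3 controls. At 2 weeks none of the 75 members passed (0 in limma, 2 lower and 0 higher at an unadjusted p under 0.05, beside 208 and 1134 of all genes), where 32 genes, or 0.286%, passed. That count was 11, 7 or 10 without control replicate 1, 2 or 3, and 60, 13 or 21 without 2wk replicate 1, 2 or 4. Their median log2 change was -0.02, against 0.09 for all genes, and 34 were higher. Without control replicate 2 this median was 0.04, and it was also above 0 without 2wk replicate 3 (0.03) or 4 (0.05). It was -0.06 without 2wk replicate 1 (13 members higher) or 2 (22 higher), and -0.04 without control replicate 1 or 3. At 3 weeks again none passed (0 in limma, 3 lower and 0 higher at an unadjusted p under 0.05, beside 199 and 3271 of all genes), where 946 genes, or 8.47%, passed. That count was 118, 408 or 118 without control replicate 1, 2 or 3, and 380, 452 or 245 without 3wk replicate 1, 2 or 4. The median was -0.08, against 0.21 for all genes, and 16 members were higher. Without control replicate 2 it was -0.02 with 31 of 75 higher, and without 3wk replicate 3 it was -0.04 with 21 higher. By complex it was -0.07, -0.01, -0.06, -0.11 and -0.09 in complexes I to V at 3 weeks.

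The difference between 3 and 2 weeks was tested in the same fit. None of the members passed (0 in limma), where 0 of all genes, or 0%, passed. At an unadjusted p under 0.05, 3 members were higher and 0 lower, beside 1312 and 99 of the 11170 genes. The direction depended on the setting. With median centring 12 members were at that p, all lower, and with quantile normalization 4, of which 3 were lower. Without 2wk replicate 4, 3 of 4 were lower. The 3 on the deposited scale, named after their values were seen, were ATP5L at 0.51 (0.13 to 0.88), COX7C at 0.57 (0.08 to 1.06) and NDUFB4 at 0.31 (0.01 to 0.61), each with a limma adjusted p of 0.350 to 0.388. These members share 84.8%, 53.0% and 37.0% of their words with other genes. ATP5L had a mean of 0.52 RPKM over all mice, just above the filter of 0.5, with 0.346 at 2 weeks and 0.693 at 3 weeks. Its place among the tested members thus depends on the 3wk values, and no conclusion is drawn from its change. Without 3wk replicate 2, 74 members were tested and 1 was higher at an unadjusted p under 0.05. The median over the members was -0.07, against 0.12 for all genes. Without 2wk replicates 1 and 2 it was 0.06 for both the members and all genes.

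One further setting was chosen after seeing the data, without 2wk replicates 1 and 2 and with each library centred on its median. Here 27 of 75 members were lower and passed (limma adjusted p under 0.05) in the main comparison, 14 at 3 weeks and 1 at 2 weeks, and 0 were higher. In the same setting 546 of 11204 genes, or 4.87%, were called lower in the main comparison, 364 (3.25%) at 3 weeks and 44 (0.393%) at 2 weeks. By complex, 14 of 36 members of complex I were called, 1 of 4 of complex II, 3 of 8 of complex III, 4 of 11 of complex IV and 5 of 16 of complex V. ATP5G1 had the lowest log2 change among them, -0.61 (-0.81 to -0.41, limma adjusted p = 0.0109), followed by UQCRB with -0.52 (-0.70 to -0.34, 0.0124). Centring assumes that the typical gene did not change, which these data cannot show.

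Some proteins of the chain are missed by the naming rule. CYC1, cytochrome c1 of complex III, had a log2 change of 0.00 (-0.17 to 0.17) and means of 224 ± 16.1 RPKM in the controls (SD, n = 3), 227 ± 10.2 at 2 weeks and 220 ± 15.9 at 3 weeks (SD, n = 4 each). COX4I1, the main regulatory subunit of complex IV, had -0.14 (-0.36 to 0.07, limma adjusted p = 0.393) from 720 RPKM in the controls to 618 at 3 weeks. The subunits NDUFAB1 and USMG5 had changes of -0.05 and -0.33, the inhibitor ATPIF1 0.01 and the electron carrier CYCS 0.16, none past the test, and COX4I2 was under the filter at no more than 0.149 RPKM.

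The factors that assemble the complexes had other medians than the subunits. The median log2 change was 0.12 over 17 factors of complex I, 0.17 over 4 of complex II, 0.14 over 5 of complex III, 0.09 over 22 of complex IV and 0.15 over 4 of complex V, all close to the 0.15 of all genes. One factor of complex I and one of complex III passed the test, both higher, and none of the others, where 4.18% of all genes passed. DMAC1, listed under an older clone name, is an assembly factor of the distal membrane arm. It was at 25.2 ± 1.93 RPKM in the controls (SD, n = 3), 29.7 ± 2.06 at 2 weeks and 37.7 ± 2.04 at 3 weeks (SD, n = 4 each). All 8 oncogene-injected mice were above the controls, as in 6.87% of all genes tested, and it rose by 0.41 (0.23 to 0.58, limma adjusted p = 0.0236). BCS1L, which inserts the Rieske protein into complex III, rose by 0.44 (0.21 to 0.67, limma adjusted p = 0.0411), from 5.86 ± 0.951 RPKM (SD, n = 3) to 7.66 ± 0.455 at 2 weeks and 8.50 ± 0.645 at 3 weeks (SD, n = 4 each). TMEM186, a complex I factor, passed at 3 weeks (0.43, limma adjusted p = 0.0407).

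Regulators of mitochondrial biogenesis had a median log2 change of 0.20 over 20 tested genes, and none passed in the main comparison (0 in limma, 3 at an unadjusted p under 0.05). ESRRA, a nuclear receptor that binds promoters of respiratory genes, rose at 3 weeks by 0.48 (limma adjusted p = 0.0353). The 74 tested proteins of the mitochondrial ribosome had a median of 0.05, with MRPS18A higher (0.36, limma adjusted p = 0.0431) and MRPS10 lower (-0.47, 0.0268). MRPS2 was also higher at 3 weeks (0.43, limma adjusted p = 0.0492), where 8.47% of all genes passed. Enzymes of the tricarboxylic acid cycle had a median of 0.13 over 14, and IDH3A rose at 3 weeks by 0.53 (limma adjusted p = 0.0468). Genes of fatty acid β-oxidation, which feed electrons to the chain, had the lowest median of these lists, -0.14 over 15, and 1 had a change above 0. None passed in the main comparison (0 in limma, 7 lower and 0 higher at an unadjusted p under 0.05). Of them ETFDH, which passes electrons from fatty acid oxidation to ubiquinone, fell at 3 weeks by 0.31 (limma adjusted p = 0.0469).

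Other lists show the scale of these values. Glycolysis had a median log2 change of 0.22 over 17 genes, with HK3 higher (0.70, limma adjusted p = 0.0404), and ALDOC lower at 3 weeks (-0.58, 0.0454). Cytosolic ribosomal proteins had 0.06 over 71 genes, with RPL10 higher (0.71, limma adjusted p = 0.0276), and proteasome subunits 0.05 over 37 with none past the test (0 in limma, 5 at an unadjusted p under 0.05). RPL9 and RPL3 were also higher at 3 weeks (0.93 and 0.75, limma adjusted p = 0.0492 each). In the controls RPL10 was at 1.71 RPKM, RPL9 at 0.741 and RPL3 at 0.363. RPL8, the most abundant of the list, had a mean of 339 RPKM over all mice. RPL3 passed the filter of 0.5 only through the oncogene groups. Given these low levels, the calls of RPL10, RPL9 and RPL3 are not read as changes of ribosomal proteins. Targets of β-catenin had 1.08 over 15 genes, and 10 rose. They were led by RHBG (1.94, limma adjusted p = 0.00137), NKD1 (2.10, 0.00196) and GLUL (1.46, 0.00842).

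Markers of cell types were examined in the same libraries. The 10 hepatocyte markers had a median log2 change of -0.23, with none past the test (0 in limma, 1 at an unadjusted p under 0.05). Their summed level was 96670, 85990 and 91350 RPKM in the controls, 94910, 92330, 83510 and 76420 at 2 weeks, and 73230, 70560, 74400 and 77670 at 3 weeks. The 4 mice at 3 weeks and replicates 3 and 4 at 2 weeks were below every control in this sum, the same 6 mice in which the subunits were low relative to all genes. Stellate and fibroblast markers had a median of 0.34 over 8, with PDGFRB and COL1A1 higher (limma adjusted p = 0.0121 and 0.0133), and their sum, led by DCN, was 87.0 ± 5.87 RPKM in the controls (SD, n = 3), 71.6 ± 10.3 at 2 weeks and 87.9 ± 2.54 at 3 weeks (SD, n = 4 each), with all 4 mice at 2 weeks below every control. COL1A1 was at 0.433 RPKM in the controls, 1.05 at 2 weeks and 1.35 at 3 weeks. It passed the filter of 0.5 only through the oncogene groups, so its call is not read as a result. The 4 tested lymphocyte markers had 0.53, with CD79B higher (limma adjusted p = 0.0495), and the sum over all 9 on the list was 1.76 ± 0.799 RPKM in the controls (SD, n = 3), 3.86 ± 1.33 at 2 weeks and 4.57 ± 1.66 at 3 weeks (SD, n = 4 each). CD79B was at 0.178 RPKM in the controls, 0.666 at 2 weeks and 0.765 at 3 weeks. It passed the filter of 0.5 only through the oncogene groups, so no conclusion is drawn from its call or from the lymphocyte median that includes it. The macrophage markers had 0.27 over 10 and a sum of 215 to 340 RPKM, led by LYZ2. Median changes were -0.05 over 8 endothelial, -0.06 over 3 cholangiocyte, -0.41 over 2 neutrophil and 0.53 over 3 proliferation markers, and -0.06 for ALAS2, the 1 tested erythroid marker. The sum over all 5 proliferation markers was 1.57 RPKM in the controls, 3.43 at 2 weeks and 2.85 at 3 weeks. At such levels the filter of 0.5 can favour genes that are higher in the oncogene groups, so no conclusion is drawn from their median. The part of cell composition in the values of the subunits was not tested.

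The promoters of the members were searched for short motifs of factors known to bind genes of the respiratory chain. RefSeq promoters (build GRCm38.p6, 250 bases before to 50 after the start) matched 66 of the 82 members, with 71 windows. Both strands were searched. GCGCATGC, the core of nuclear respiratory factor 1 (NRF1), was in 14.1% of the members' windows, 2.71% of all 32851 windows and 5.35% of the windows of tested genes. CCGGAAG, of GABP and other ETS factors, was in 22.5%, 8.86% and 17.6%. AAGATGGCG, of YY1, was in 9.86%, 1.4% and 3.09%, and TCAAGGTCA, of estrogen-related receptors, in 2.82%, 0.423% and 0.291%. CTTTGAT, of the TCF/LEF partners of β-catenin, was in 1.41%, 3.73% and 2.46%. A match is a description of letters and not a site shown to be bound.

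The NRF1 letters were found in 3 of 32 matched members of complex I, 1 of 3 of complex II, 2 of 5 of complex III, 1 of 13 of complex IV and 3 of 13 of complex V. The YY1 letters were found in 5 members of complex I, 2 of complex V and 0 of the other complexes. Sequences before the start are shown for 3 members, with motifs in capitals. COX6A1, the most abundant member of complex IV, holds NRF1 letters on both strands, which overlap, and an ETS motif. ATP5H and NDUFA8 are the members with the lowest and the highest change among those with one window and a motif before the start. Atp5h is at chr11:115419920-115420169 (minus strand, ETS), Cox6a1 at chr5:115348959-115349208 (minus strand) and Ndufa8 at chr2:36049339-36049588 (minus strand, NRF1).
Atp5h: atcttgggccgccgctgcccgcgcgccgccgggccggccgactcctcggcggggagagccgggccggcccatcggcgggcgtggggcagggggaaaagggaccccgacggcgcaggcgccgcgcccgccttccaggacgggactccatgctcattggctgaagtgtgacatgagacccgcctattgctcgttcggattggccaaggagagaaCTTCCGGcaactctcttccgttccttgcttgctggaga
Cox6a1: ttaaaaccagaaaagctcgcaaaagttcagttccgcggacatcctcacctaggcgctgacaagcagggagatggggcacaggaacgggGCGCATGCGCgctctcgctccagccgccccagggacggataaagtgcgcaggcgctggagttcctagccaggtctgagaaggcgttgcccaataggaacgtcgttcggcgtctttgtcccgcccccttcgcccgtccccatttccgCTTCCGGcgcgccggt
Ndufa8: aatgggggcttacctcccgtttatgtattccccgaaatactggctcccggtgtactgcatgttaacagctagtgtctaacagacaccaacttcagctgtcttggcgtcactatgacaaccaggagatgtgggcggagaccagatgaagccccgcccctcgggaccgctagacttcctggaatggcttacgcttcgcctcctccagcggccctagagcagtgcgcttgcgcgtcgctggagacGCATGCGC
ATP5H had a log2 change of -0.15 (-0.42 to 0.11) and NDUFA8 of 0.15 (-0.04 to 0.34), neither past the test.

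These values have clear limits. There were 3 control livers and 4 per time point, and the absence of a call is not evidence of no change; the confidence intervals give the range the data allow. The controls were taken at a single time and share no range of mouse numbers with the oncogene groups. Time since injection, age and any such series therefore cannot be told apart from the oncogenes. All comparisons with the controls share the same 3 mice. RPKM measures transcripts and not the amount of protein, assembled complex or respiration. The signs of many members depend on the scaling. The parts of pseudogene copies, transcript length and cell composition were not tested.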

How the data were processed

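RNA-seq of 11 mouse livers (3 controls, 4 at 2 weeks and 4 at 3 weeks) is given as a table of deposited RPKM values made by the authors, with one column per mouse. Of 23420 names, 27 made of digits only were not used. Read totals were inferred from the values (17090000 to 26930000 per library). Genes with a mean of at least 0.5 RPKM over all mice (11170) were tested on log2(RPKM + 0.5) in one model of 3 groups with limma 3.58.1 (trend) in R 4.3.3, and p-values were adjusted by the Benjamini-Hochberg method over all tested genes. Mice were not paired. Members named singly are those past the test, the 2 with the highest means and those with the highest and lowest change in each complex, the sets of isoforms, and members under the filter; any other member was named after its values were seen. Members and lists were chosen with earlier results of these data known. Alternatives were 3 scalings, a pseudocount of 0.1 or 1, a minimum mean of 2 RPKM, no filter, array weights, only the groups compared, a replicate block, and leaving out each library or 2wk replicates 1 and 2; combinations with median centring were chosen after seeing the data. Shared words of 50 bases were counted in GENCODE M21 transcripts, and motifs in RefSeq promoters. The fit was tested on simulated data.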

Additional observations from a re-analysis of the deposited data

Results flagged for a closer look

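The spread inside groups was examined for the members named singly and the complexes. Of 56 groups of 4 mice, 2 held a mouse past the critical value of Dixon's test for the gap to the next mouse over the range of the group; about 1 group in 20 passes by chance. SDHB was lowest in 3wk replicate 2, at 199 RPKM (0.957). The median of complex II minus that of all genes was lowest in the same mouse, at -0.43 (0.917). Of 22 members examined, 0 had all mice of one time point above the control mean and all mice of the other below it. By group mean, some members did lie on opposite sides, such as COX7A1 with log2 changes of 0.50 at 2 weeks and -0.28 at 3 weeks.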

How the results depend on the processing

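The number of members past the test depended on the setting. In the main comparison it was 0, and it was 1 with median centring (UQCRB; 0.85% of all genes passed), 1 with array weights (UQCRB; 13.8%) and 2 without 2wk replicates 1 and 2 (ATP5G1 and UQCRB, both lower; 13.5%, with 1439 genes higher and 74 lower). At 3 weeks it was 0, and it was 1 with median centring (UQCRB; 1.08%), 2 with array weights (UQCRB and ATP5G1; 26.9%), 1 with only the groups compared (ATP5G1; 15.6%) and 1 without 2wk replicates 1 and 2 (ATP5G1; 15.9%). Without these 2 mice and with median centring, a setting chosen after seeing the data, it was 27 in the main comparison, 1 at 2 weeks and 14 at 3 weeks.

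The members' median minus that of all genes was -0.31 at 2 weeks without 2wk replicates 1 and 2, with or without centring, and 0.00 (0.004931) between 3 and 2 weeks. With quantile normalization it was 0.01 (0.0076) in complex II and -0.035 in complex III in the main comparison, and -0.084 over the members at 3 weeks.

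Leaving out 1 library at a time gave 0 to 1 members past the test in the main comparison (ATP5G1 without 2wk replicate 1) and 0 to 0 in the others. The members' median minus all genes ran from -0.23 to -0.14 in the main comparison, -0.17 to -0.00 at 2 weeks, -0.33 to -0.24 at 3 weeks and -0.27 to -0.11 between 3 and 2 weeks. By complex in the main comparison it ran from -0.23 to -0.13 (I), -0.21 to -0.14 (II), -0.22 to -0.15 (III), -0.21 to -0.12 (IV) and -0.23 to -0.15 (V).

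With a replicate block, 0 members passed in every comparison, where 93 genes (0.833%) passed in the main comparison, 23 (0.206%) at 2 weeks and 350 (3.13%) at 3 weeks. Of 10 pairs of mice with the same replicate number in 2 groups, the residual correlation was 0.00858 to 0.28 and over 0.1 in 2. In 6 of the 10 the best match had the same number, and how often this occurs by chance was not computed. The labels do not say that mice with the same number belong together, and mice were not treated as paired.

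Over all genes, 467 passed in the main comparison (442 higher, 25 lower), 95 with median centring (49 and 46) and 78 with quantile normalization (55 and 23). At 3 weeks 946 passed, 121 with median centring (54 and 67) and 92 with quantile normalization (67 and 25).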

Other observations

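In complex II, SDHA was below every control in all 4 mice at 2 weeks, at 194 to 222 RPKM beside 226 to 255 in the controls, while SDHC was above every control in 5 of 8 mice. Neither passed the test, and how many of all genes separated in these ways was not counted.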
